A study of Mus musculus with 4 samples.

Results

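The ErbB receptors, their EGF-type ligands and the feedback inhibitor Errfi1 were followed in mouse mammary tumour cells driven by ErbB2 after inhibition of EZH2. The set was given as 10 gene symbols, Erbb2, Erbb3, Erbb4, Egfr, Areg, Ereg, Btc, Hbegf, Tgfa and Errfi1. It was read from probe sets that carry 1 symbol only, with every such probe set of Erbb2 and the probe set of highest mean for each other gene. Of the 10 genes, 9 were measured among 22180 named genes, and Areg was not analysed here. All 9 lay in the fit over all genes, since no filter on low values was applied.

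The cells were lines established from tumours of MMTV-NIC mice (females of the FVB strain), whose transgene joins an activated ErbB2 to Cre recombinase through an internal ribosome entry site. The mouse mammary tumour virus promoter drives this transgene in mammary epithelium, and both groups carried it. One group received the vehicle DMSO (n = 2 arrays) and the other 2 µM GSK-126, an inhibitor of the H3K27 methyltransferase EZH2 (n = 2 arrays), for 96 h. All cells were routinely grown in medium with 5% serum, EGF at 5 ng/ml, hydrocortisone at 1 µg/ml, insulin at 5 µg/ml and pituitary extract at 35 µg/ml, so an EGFR ligand was added in both groups. Neither the number of lines nor whether replicates are separate cultures is given by the labels, so p-values reflect the spread from array to array alone, and that spread may be technical.

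The ErbB family holds 4 receptor tyrosine kinases that signal as pairs. EGFR and ERBB4 bind ligands and have active kinases, ERBB3 binds neuregulins but has little kinase activity and carries docking sites for phosphatidylinositol 3-kinase, and ERBB2 binds no known ligand and acts as the preferred partner of the others. The ligands are made as membrane-bound precursors that proteases of the ADAM family cut free. In ErbB2-driven mammary tumours the ERBB2 and ERBB3 pair is known as a main source of growth signalling.

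The arrays themselves were alike. Pearson correlations over all probe sets lay between 0.981 and 0.988, with the lowest values for GSK126 replicate 2. GSK126 replicate 1 correlated at 0.987 and 0.986 with the DMSO arrays and at 0.981 with its own replicate. Of 10 luminal epithelial markers, 9 were above the dim level in both groups, including Epcam, Cdh1, Krt8 and Krt18. Dim here means a mean below 4.77 on the log2 scale, the 40th percentile of mean level over all genes. Of the 7 leukocyte and macrophage markers measured, 5 were dim in both groups, among them Ptprc, Adgre1 and Lyz2. The log2 summed level of these 7 was 8.57 and 8.66 in the DMSO arrays and 9.37 to 9.41 in the GSK126 arrays. The macrophage marker Cd68 differed by 1.00 (limma adjusted p = 0.010). Of the others, Csf1r differed by 0.12, Lyz2 by 0.0046, Ptprc by -0.0098, Itgam by -0.15, Adgre1 by -0.16 and Cd3e by -0.20. Of the 7 basal or myoepithelial markers measured, 3 were dim in both groups (Trp63, Krt17 and Cnn1), and the log2 of their summed level was between 8.45 and 8.47 in the DMSO arrays and between 8.12 and 8.20 in the GSK126 arrays. Among them Oxtr, the oxytocin receptor gene, differed by -0.75 (adjusted p = 0.0479), and Krt14, a basal keratin gene, differed by -0.51 (adjusted p = 0.384). Myh11 differed by -0.09, while Krt17 (0.33), Cnn1 (0.18), Trp63 (0.12) and Acta2 (0.07) were on the higher side with GSK126. Of 8 fibroblast markers, 6 were above the dim level in at least 1 group, as were 3 of 7 endothelial and 1 of 5 adipocyte markers. The log2 summed level of the fibroblast markers was 7.905 and 7.97 in the DMSO arrays and 7.94 and 8.09 in the GSK126 arrays. The part of these markers in the values below was not tested.

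All receptor genes but Erbb4 were clearly expressed, which is shown first in the vehicle group. Erbb2, the gene of the driver receptor, had 1 probe set with values of 9.03 and 8.97 in the DMSO arrays (9.0 ± 0.04, SD, n = 2), at the 91.4th percentile of all genes. Whether that probe set reads the endogenous transcript, the transgene or both was not tested. Erbb3, the docking partner, was at 8.79 and 8.80 (8.80 ± 0.0080, 89.7th percentile), and Egfr, the receptor of EGF, at 8.61 and 8.69 (8.65 ± 0.06, 88.4th percentile). The neuregulin receptor gene Erbb4 was dim in both groups, at 3.90 and 3.81 with DMSO (3.86 ± 0.06, 21.5th percentile) and 3.93 in each GSK126 array (3.93 ± 0.0038). Since probe sets differ in how strongly they respond, the levels of different genes are described against the whole array and were not tested against each other.

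The 4 measured ligand genes were all above the dim level in both groups. Tgfa, which encodes TGF-alpha, was at 8.19 and 8.07 in the DMSO arrays (8.13 ± 0.08, 83.1st percentile). Hbegf, the gene of heparin-binding EGF-like growth factor, was at 7.46 and 7.24 (7.35 ± 0.16, 73.7th percentile). Btc, which encodes betacellulin, a ligand of EGFR and ERBB4, was at 6.05 and 6.04 (6.05 ± 0.0049, 59.3rd percentile). Ereg, the epiregulin gene, was nearest to the dim level of the 4, at 5.25 and 5.16 (5.20 ± 0.06, 49.0th percentile). In the RefSeq gene order Epgn, Ereg, Areg and Btc are consecutive protein-coding genes on mouse chromosome 5. Errfi1, an inducible cytoplasmic inhibitor that binds the EGFR and ERBB2 kinases, was at 7.97 and 8.05 (8.01 ± 0.05, 81.8th percentile).

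**Figure D1:**
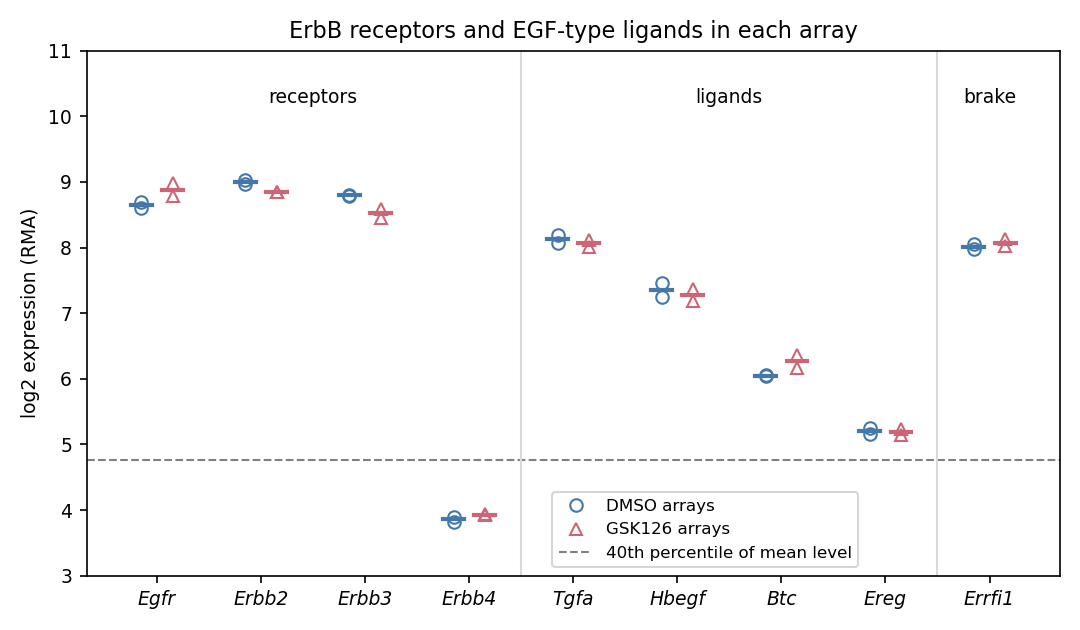
Log2 expression of the 9 measured genes in each of the 4 arrays (circles, DMSO; triangles, GSK126; bars, group means; dashed line, the dim level of 4.77). Erbb4 lies below the dim level in all 4 arrays, and the groups are apart for Erbb2, Erbb3, Erbb4, Egfr and Btc.

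None of the 9 genes passed the threshold between GSK126 and DMSO. In limma, with Benjamini-Hochberg adjustment over all 22180 genes and a threshold of 0.05, 0 of 9 were called, where 0.433% of all genes were. With a raw p below 0.05 there were 2 of 9, Erbb3 on the lower and Egfr on the higher side, against 10.6% of all genes. Values of the groups did not overlap for 5 of the 9 (3 higher and 2 lower with GSK126), against 40.1% of all genes. The median difference over the 9 was -0.02, beside -0.0077 over all genes tested, and the differences ran from -0.27 to 0.23. Every difference is the GSK126 mean minus the DMSO mean, on the log2 scale.

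Among the receptors, Erbb3 had the smallest p. Its values were 8.79 and 8.80 with DMSO and 8.60 and 8.45 with GSK126. Both GSK126 arrays lay below both DMSO arrays, and GSK126 replicate 2 lay lowest. The difference was -0.27 (SE 0.09, 95% interval -0.49 to -0.06, 1.21-fold, adjusted p = 0.358). Leaving out GSK126 replicate 2 brought it to -0.20, and leaving out GSK126 replicate 1 to -0.35. Absolute differences larger than that of Erbb3 were found for 17.1% of all genes.

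Egfr differed in the other direction, with 8.61 and 8.69 in the DMSO arrays and 8.98 and 8.78 in the GSK126 arrays. The groups did not overlap, although the second GSK126 array was closer to DMSO than to its own replicate. Its difference was 0.23 (SE 0.10, 95% interval 0.0040 to 0.46, 1.17-fold, adjusted p = 0.462). It was 0.13 without GSK126 replicate 1 and 0.33 without GSK126 replicate 2. For 23.8% of all genes the absolute difference was larger.

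Erbb2 itself was at 9.03 and 8.97 with DMSO and at 8.85 in each GSK126 array (8.85 ± 0.0011). Both GSK126 values were lower than both DMSO values. The difference of -0.15 did not pass (SE 0.08, 95% interval -0.34 to 0.04, adjusted p = 0.563), and 41.7% of all genes had a larger one. When all 41345 probe sets were tested together, the same probe set had a raw p of 0.114 and an adjusted p of 0.767, where 7.06% of probe sets had a raw p below 0.05 and 0 were called in limma. Erbb4, dim in each array, differed by 0.07 (SE 0.16, 95% interval -0.30 to 0.45, adjusted p = 0.930), and the size of a difference between dim values is uncertain.

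Because a scaling error of an array cancels in the difference between a pair of genes on it, the 3 pairs of expressed receptors were also compared within arrays, a comparison added after the values were seen. The log2 value of Egfr minus that of Erbb3 was -0.18 and -0.11 in the DMSO arrays and 0.38 and 0.34 in the GSK126 arrays. The shift between the group means was 0.51, with SDs of 0.05 and 0.03. It is made of the Egfr difference of 0.23 and the Erbb3 difference of -0.27, already given above. Since the pair was formed after both were seen, the shift is no separate evidence. The Egfr minus Erbb2 value shifted by 0.38, from -0.42 and -0.28 to 0.13 and -0.07. For Erbb2 minus Erbb3 the shift was 0.12, from 0.24 and 0.17 to 0.25 and 0.40, and it was 0.05 without GSK126 replicate 2 and 0.20 without GSK126 replicate 1. Groups did not overlap for any of the 3 pairs, for Erbb2 minus Erbb3 only narrowly (0.236 against 0.252). Among single genes 40.1% did not overlap, and the share over all pairs of genes was not computed. With 2 arrays against 2, a two-sided exact permutation test cannot go below p = 0.333, and each pair had that value before and after adjustment over the 3 pairs. The sign of such a value has no meaning for the levels of the genes, only its shift between groups does.

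Of the 4 ligand genes of the set that were measured, Btc had the largest difference. It was at 6.05 and 6.04 with DMSO and at 6.37 and 6.17 with GSK126, so both treated arrays were higher. The difference of 0.22 did not pass (SE 0.12, 95% interval -0.07 to 0.51, adjusted p = 0.585), and it was 0.12 without GSK126 replicate 1. Tgfa was at 8.12 and 8.02 with GSK126, overlapping with its DMSO values of 8.19 and 8.07, and differed by -0.06 (95% interval -0.28 to 0.16, adjusted p = 0.884). Hbegf was at 7.37 and 7.18 with GSK126, and its 2 groups overlapped. The Hbegf difference of -0.07 (95% interval -0.35 to 0.21, adjusted p = 0.897) became 0.04 without DMSO replicate 1 and 0.02 without GSK126 replicate 2. Ereg was at 5.24 and 5.14 with GSK126 and differed by -0.02 (95% interval -0.34 to 0.31, adjusted p = 0.989). The second probe set of Ereg, with means of 4.84 and 4.88, differed by 0.04, so the direction was not the same in the pair. Errfi1, the feedback inhibitor, was at 8.13 and 8.02 with GSK126, overlapped with its DMSO values and differed by 0.06 (95% interval -0.15 to 0.28, adjusted p = 0.876).

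**Figure D2:**
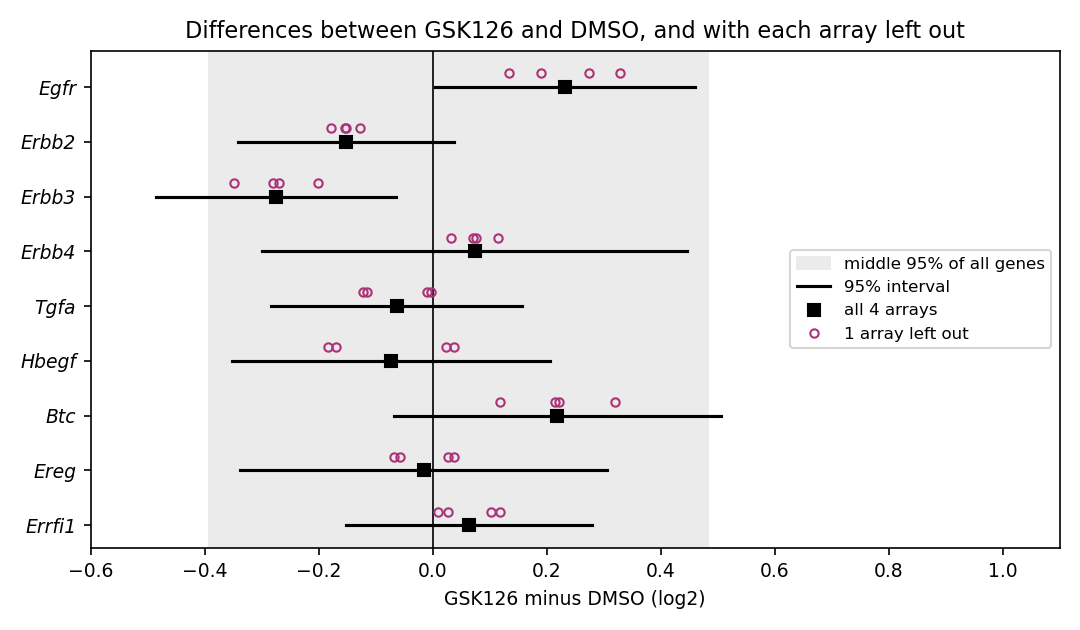
Difference GSK126 minus DMSO on the log2 scale for each gene (squares) with its 95% interval from limma (lines), and the difference with each array left out in turn (open circles). The grey band, from -0.39 to 0.48, holds the middle 95% of all genes, and all 9 differences lie inside it.

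The 95% intervals above belong to single genes and were not widened for the number of genes. For all 9 genes they exclude a doubling or a halving. With 2 arrays in each group, differences of the size seen for Erbb3 or Egfr were not separated from the spread between arrays after adjustment.

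By the pattern over the 4 arrays, each gene centred on its own mean, the genes closest to Erbb2 were Nmd3 (root-mean-square difference 0.0031), Rpn1 (0.0040) and Ube2b (0.0049). Closest to Erbb3 were Pex5 (0.0085), Zfp943 (0.0093) and Lgr6 (0.0096). Such closeness is common on 4 arrays. Of 17207 genes compared, 5478 lay within 0.1 of Erbb2 and 2537 within 0.1 of Erbb3.

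Base composition before the gene starts was described because EZH2 acts with a complex, PRC2, that is known to gather at CpG-rich promoters. H3K27me3 at these genes was not measured here. RefSeq windows (build GRCm38.p6) were matched for 7 of the 10 genes, Erbb2, Erbb4, Egfr, Areg, Btc, Tgfa and Errfi1, the last with a pair of windows. The 250 bases before the start are printed 5′ to 3′ on the strand of the gene for the 3 receptors with a window and for Btc, which had the largest difference of the 4 measured ligand genes of the set, with CpG dinucleotides in capitals.
Erbb2, chr11:98412234-98412483, plus strand: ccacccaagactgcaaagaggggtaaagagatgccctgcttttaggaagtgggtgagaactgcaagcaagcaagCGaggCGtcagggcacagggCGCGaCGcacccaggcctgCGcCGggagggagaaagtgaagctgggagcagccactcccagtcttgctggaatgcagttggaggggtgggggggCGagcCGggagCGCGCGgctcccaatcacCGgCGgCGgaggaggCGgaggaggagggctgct
Egfr, chr11:16751953-16752202, plus strand: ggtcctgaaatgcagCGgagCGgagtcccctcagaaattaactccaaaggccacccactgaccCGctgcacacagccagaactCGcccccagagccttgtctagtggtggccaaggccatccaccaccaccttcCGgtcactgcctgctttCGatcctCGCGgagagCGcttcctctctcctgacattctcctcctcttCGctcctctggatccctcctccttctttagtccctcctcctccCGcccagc
Erbb4, chr1:69108060-69108309, minus strand: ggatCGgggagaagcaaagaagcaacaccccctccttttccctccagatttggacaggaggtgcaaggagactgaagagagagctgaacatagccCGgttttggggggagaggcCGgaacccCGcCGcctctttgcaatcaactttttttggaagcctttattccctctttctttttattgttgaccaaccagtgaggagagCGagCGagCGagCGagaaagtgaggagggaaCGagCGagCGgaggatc
Btc, chr5:91402995-91403244, minus strand: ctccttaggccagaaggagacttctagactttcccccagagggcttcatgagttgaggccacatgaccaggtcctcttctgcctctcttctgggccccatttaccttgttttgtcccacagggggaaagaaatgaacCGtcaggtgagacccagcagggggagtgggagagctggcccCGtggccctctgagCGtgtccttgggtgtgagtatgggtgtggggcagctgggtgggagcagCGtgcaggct
The Erbb2 window belongs to the endogenous gene and not to the transgene, whose promoter is viral.

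CpG content was higher than in most windows for the receptor genes and low for Btc. Erbb2 held 16 CpG in 250 bases at a G and C share of 66%, an observed over expected ratio of 0.631, and 68.2% of 32851 windows had a lower ratio. Erbb4 held 12 CpG with a ratio of 0.675, and Egfr held 11 with a ratio of 0.551. Btc held 4, with a ratio of 0.184 that exceeded only 27.4% of windows. The ratios of Erbb2 and Erbb4 were close. Whether the Erbb2 probe set reads the transcript of this window was not tested, so ratios were not set against levels. Areg had 15 CpG and Tgfa 19, while the windows of Errfi1 held 1 and 30. The median window had 6 CpG and a ratio of 0.374. The GC box GGGCGG, searched on both strands, was found in the windows of Egfr, Areg, Tgfa and the second of Errfi1, and in 32.7% of all windows. A TATAAA element was found on either strand for Areg and the second window of Errfi1, and in 12.4% of all windows. The AP-1 motif TGANTCA was in none of the 8 windows of these genes and in 6.75% of all windows.

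**Figure D3:**
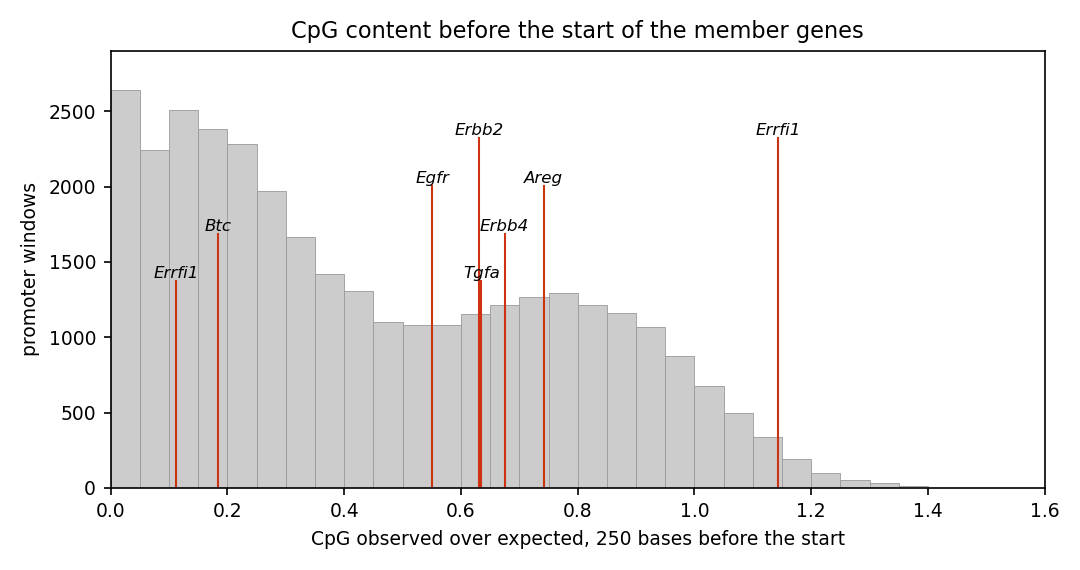
CpG observed over expected in the 250 bases before the start of RefSeq genes (grey bars, number of windows among 32851) with the 8 windows of 7 listed genes marked by red lines whose heights only separate the labels. Erbb2 (0.631), Erbb4 (0.675) and Egfr (0.551) lie close together, Btc lies at 0.184 and Errfi1 at 0.112 and 1.14.

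The other genes of the pathway were read from 7 lists with 168 genes, of which 155 were measured. Of these, 2 passed the threshold, Axl and Ptgs2, both higher, and 153 did not. The share called among all genes was 0.261% for higher and 0.171% for lower. Their median difference was -0.02. With a raw p below 0.05, 14 were higher and 14 lower, where 4.64% and 5.93% of all genes were.

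Among the remaining EGF-type ligands and neuregulins, 0 of 7 passed in limma, and the median difference was 0.07. With a raw p below 0.05, 1 was higher and 0 lower, beside 4.64% and 5.93% of all genes. That gene was Nrg1, which encodes the ERBB3 and ERBB4 ligand neuregulin 1. Its values were 6.78 and 6.31 with DMSO and 6.87 and 7.01 with GSK126. Both treated arrays were higher, but the first DMSO array lay close to them, and the difference of 0.39 (SE 0.16, adjusted p = 0.454) was 0.16 without DMSO replicate 2 and 0.62 without DMSO replicate 1. Nrg4 differed by 0.19. Nrg2 differed by 0.14, which became 0.0088 without GSK126 replicate 1 and 0.28 without GSK126 replicate 2. Egf, the gene of EGF itself, Nrg3 and Tdgf1 were dim in both groups.

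Genes of ligand release also had 0 of 14 past the threshold in limma, with a median of 0.0033. With a raw p below 0.05, 2 were higher and 0 lower, beside 4.64% and 5.93% of all genes. Timp3, an inhibitor of metalloproteinases including ADAM17, was at 4.46 and 4.48 with DMSO, where it was dim, and at 5.03 and 5.14 with GSK126 (difference 0.61, SE 0.15, adjusted p = 0.205). Adam12, a metalloprotease, was at 7.04 and 6.67 with DMSO and at 7.30 and 7.62 with GSK126 (0.61, SE 0.16, adjusted p = 0.242). Adam9 differed by 0.23, and by 0.13 without DMSO replicate 1. Adam17 and Adam10, the main sheddases of this ligand family, differed by 0.01 and -0.0047.

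Of 17 receptor partners measured, 1 was called higher, 0 were called lower and 16 did not pass, with a median of -0.02. Among all genes 0.261% were called higher and 0.171% lower. Axl, a receptor tyrosine kinase of the TAM family, rose from 6.61 and 6.54 to 7.24 and 7.34, a change of 0.72 (SE 0.10, 1.64-fold, adjusted p = 0.0445). That call was lost when any of the 4 arrays was left out, with adjusted p between 0.169 and 0.473 and a difference that stayed between 0.67 and 0.77. It was also lost, at the same difference, with the replicate number as a block (0.158), with no intensity trend (0.237) and with all probe sets tested (0.440). Itga6, the alpha6 integrin that partners with the ErbB receptors through integrin beta4, differed by -0.28 (adjusted p = 0.319), Sdc1 by -0.20 and Muc1 by -0.23. Without GSK126 replicate 2 the last 2 were at -0.12 and -0.15, and Muc1 was at -0.14 without DMSO replicate 2.

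Brakes on the receptors were 25 genes for ubiquitin ligases, phosphatases and other negative regulators. In limma 0 passed the threshold, and 0 had a raw p below 0.05 in either direction, beside 10.6% of all genes. Their median was -0.04 and their range -0.30 to 0.23. The 3 smallest p belonged to the ubiquitin ligase gene Cblc (-0.30), the adaptor gene Dok1 (-0.22) and the ubiquitin ligase gene Cblb (0.23). Cblc was at -0.14 without DMSO replicate 1 and -0.45 without DMSO replicate 2, and Cblb at 0.36 and 0.095 without the same arrays.

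Adaptors and kinases downstream of the receptors had 0 of 40 past the threshold in limma. With a raw p below 0.05, 6 were lower and 1 higher, beside 5.93% and 4.64% of all genes, and 14 had GSK126 values below both DMSO values, beside 21.8% of all genes. Their median was -0.05. Stat5a, a transcription factor of the mammary epithelium, was at 8.29 and 8.28 with DMSO and at 8.03 and 7.68 with GSK126. Both treated arrays were lower, and GSK126 replicate 2 was lowest (-0.43, SE 0.12, adjusted p = 0.298; -0.26 without that array). Grb7, an adaptor that binds ERBB2, was at 8.21 and 7.96 against 7.72 and 7.62 (-0.41, SE 0.11, adjusted p = 0.267). Gab1, a docking protein of EGFR signalling, was at 8.43 and 8.42 against 8.17 and 7.98 (-0.35, SE 0.10, adjusted p = 0.280).

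Grb7 is also a neighbour of Erbb2 in the genome. Of 16 measured genes around Erbb2, 0 passed in limma, and the median was -0.09. With a raw p below 0.05, 3 were lower and 0 higher, beside 5.93% and 4.64% of all genes. Values did not overlap for 6 genes on the lower side and for 0 on the higher side, beside 21.8% and 18.2% of all genes. Besides Grb7 the lowest p belonged to Med24, a Mediator subunit gene (-0.26, adjusted p = 0.352), and to Stard3, a cholesterol-binding protein gene (-0.31, adjusted p = 0.395, and -0.20 without DMSO replicate 1). Pgap3, which precedes Erbb2 in the gene order, differed by 0.08, and Mien1, whose annotated span overlaps those of Erbb2 and Grb7, by -0.13.

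Immediate-early and EGF-induced genes had the widest range, -0.39 to 1.37, whose upper end was Ptgs2 alone (the next was Ccn2 at 0.59). Their median was 0.02 over 37 genes. Of these 1 rose, 0 fell and 36 did not pass, beside 0.261% called higher and 0.171% called lower among all genes. With a raw p below 0.05, 9 were higher and 5 lower, beside 4.64% and 5.93% of all genes. Values did not overlap for 10 on the higher and 12 on the lower side, beside 18.2% and 21.8% of all genes. Ptgs2, the inducible cyclooxygenase gene, rose from 6.64 and 6.75 to 7.91 and 8.21 (1.37, SE 0.12, 2.59-fold, adjusted p = 0.0100). This call was lost when any of the 4 arrays was left out (adjusted p 0.0568 to 0.222), where the difference stayed between 1.22 and 1.52. It was also lost with no intensity trend (0.169) and with all probe sets tested (0.358), and kept with the replicate block (0.0428). Ccn2, a secreted matricellular protein gene, was at 8.90 and 8.70 against 9.42 and 9.36 (0.59, SE 0.10, adjusted p = 0.0619). It passed without dim genes (0.0324) and after quantile normalization (0.0467), and differed by 0.38 when its probe sets were averaged. Klf6 and Ccn1 differed by 0.39 and 0.33.

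**Figure D4:**
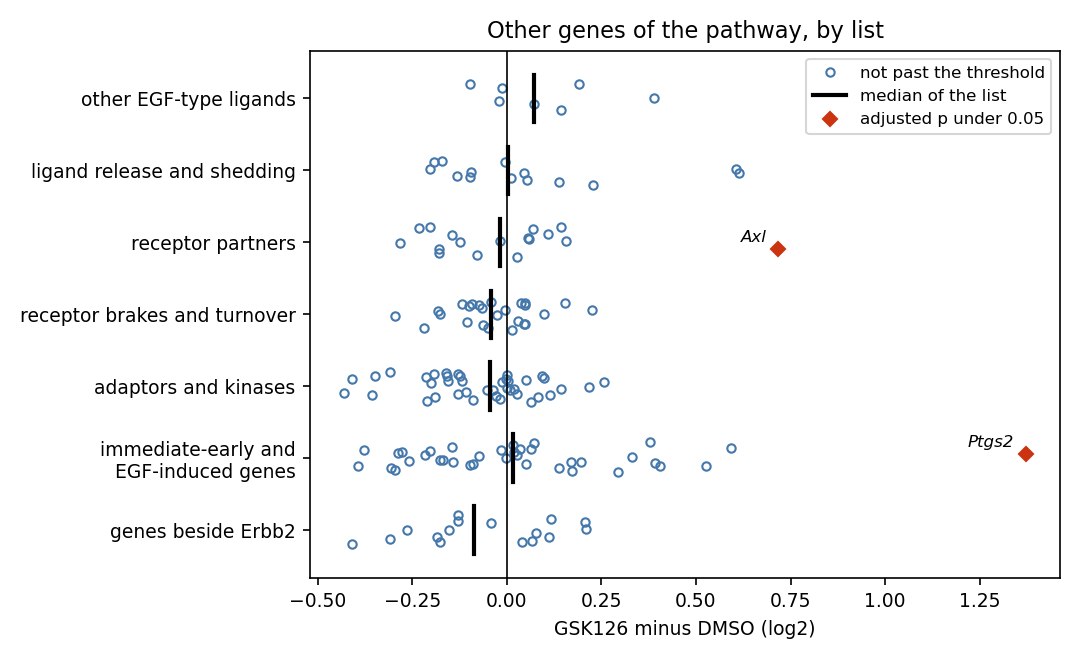
Difference GSK126 minus DMSO on the log2 scale for each gene of the 7 lists (open circles, not past the threshold; red diamonds, adjusted p under 0.05; black bars, list medians; vertical spread within a list is random). Axl (0.72) and Ptgs2 (1.37) are the 2 genes past the threshold, and the list medians lie between -0.09 and 0.07.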

How the data were processed

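Biotin-labelled total RNA was hybridised to Affymetrix mouse arrays. The deposited values are log2 expression values that the authors made by robust multi-array averaging (RMA) in Expression Console with a core-exon analysis, per the labels. Affymetrix Power Tools stands in the submitters' processing notes, with no version. The build is not given in the sources here. Groups and replicate numbers come from sample titles. Array medians were 4.74 and 4.73 for DMSO and 4.79 and 4.78 for GSK126, so both were higher with GSK126. Of 41345 probe sets, 23521 carried 1 symbol in the platform annotation, 1814 several and 16010 none, and 23328 matched RefSeq by Entrez identifier. Each of 22180 genes was read from its brightest probe set.

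Differences were fitted with limma 3.58.1 in R 4.3.3 (intensity trend in the prior variance, two-sided moderated test, no block, 2 residual and 5.57 prior degrees of freedom), and the procedure was tested on simulated data. The number of arrays limits the precision. Pairs of arrays shared 142 to 181 identical values, so none was a copy. Promoter windows were read with Python 3.11.15.

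The genes and lists were chosen with earlier results of these data known. From each list the text names genes past the threshold and up to 3 others with the smallest p, and further genes chosen after their values were seen. Alternatives were a constant or robust prior, no dim genes, averaged or separate probe sets, median centring, quantile normalization, the replicate block and leaving out each array. Genes with closely shared sequence may not be fully told apart on arrays, and this was not tested here.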

Additional observations from a re-analysis of the deposited data

How the results depend on the processing

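Under all 12 alternatives, 0 of the receptor, ligand and Errfi1 genes were called in limma (0 to 2 with a raw p below 0.05). Direction was kept under every alternative by Erbb2, Erbb3, Erbb4, Egfr, Btc, Tgfa and Errfi1. With arrays centred on their medians the difference was -0.21 for Erbb2, -0.33 for Erbb3 and 0.18 for Egfr. The limma raw p was then 0.037 for Erbb2 and 0.106 for Egfr. For Egfr it was 0.047 in the main fit, 0.0508 with the robust and 0.115 with the constant prior. It was 0.073 with the replicate block and 0.0757 with all probe sets. It stayed below 0.05 without dim genes, with averaged probe sets and after quantile normalization. The Ereg difference turned to 0.011 when its probe sets were averaged and ran from -0.069 to 0.037 with an array left out, and that of Hbegf ran from -0.18 to 0.037, turning without DMSO replicate 1 and without GSK126 replicate 2 in either gene. Adjusted p ran from 0.206 to 0.687 for Erbb3 and from 0.339 to 0.768 for Egfr.

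Over all genes, 96 were called, 58 higher and 38 lower. With no intensity trend, 0 were called in limma, 0 higher and 0 lower (1964 with a raw p below 0.05), and likewise 0, 0 and 0 with all probe sets tested (2921). Without dim genes 149 were called, 66 of them lower, and with centred arrays 117, of which 55 were higher and 62 lower. The replicate block gave 10, 8 higher and 2 lower. Leaving out 1 array gave 0 to 4, with 0 to 3 higher and 0 to 1 lower. Of the pathway genes, 2 were called, against 0 in limma with no trend, 0 with all probe sets, 1 with the replicate block and 0 with each array left out. The labels do not say that the replicate numbers pair the arrays, so the main fit had no block. Deviations of same-numbered arrays from their group means correlated at -0.027 over all probe sets, which does not settle whether the arrays are paired. The cause of these changes was not tested.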
